A study of Danio rerio with 3 samples.

Results

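The genes described here encode the machinery that copies DNA and the checkpoint that watches over it: the origin recognition complex, the licensing factors, the MCM helicase and its activators, the replicative polymerases, the sliding clamp with its loader, the single-strand binding protein RPA, and the ATR, Chk1, Chk2 and Wee1 kinases with their partners. They were taken from the 25386 genes in the table by symbol alone: 54 symbols matched the name patterns, and all 54 reached 1 FPKM (fragments per kilobase of transcript, normalised to mapped library size) in at least 1 library. The member with the lowest peak was cdc45, at 6.82 FPKM in the library where it was highest, so the threshold removed no gene. The name treslin matched no symbol.

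Poly(A) RNA came from dechorionated whole zebrafish embryos of wildtype genotype, with 1 library in each of 3 groups. The control group was untreated and collected at 4.3 hours post fertilisation (hpf), at dome stage. Both other groups had received 1 nl of wheat germ agglutinin (WGA), 0.65 ng in all, in the yolk when they were still 1 cell. WGA is a plant lectin that binds sugar-modified nucleoporins and obstructs nuclear pores, and the series asks what this does to activation of the embryo's own genome. Of the WGA groups, the first was collected at 4.3 hpf, matched to the control in time, and the second at 5 hpf, when the embryos had a dome-like shape. The labels name no strain, no number of embryos per library and no mock-injected group, so an effect of injection cannot be told apart from one of WGA. No control library was made at 5 hpf. Wherever the 5 hpf library is set against control, WGA and later age therefore cannot be told apart. The labels give no stage for the WGA group at 4.3 hpf. In that comparison a difference in developmental stage cannot be told apart from other effects of WGA.

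The summed level of 6 blastula factor genes was 2133.36, 1711.83 and 1749.89 FPKM in control, WGA at 4.3 hpf and WGA at 5 hpf, with 0 of them at 0 in any library. Of these, nanog was the most abundant in each library (1094.35, 934.97 and 968.18 FPKM), vox, ved, klf17 and pou5f3 were lower in both WGA libraries than in control, and sox19b was higher, at 56.6, 292.6 and 291.64 FPKM. No marker listed for the enveloping layer, the yolk syncytial layer or germ plasm was at 0 in any library, although the yolk syncytial marker slc40a1 was near it (0.12, 0.04 and 0.09 FPKM). The summed level of 5 enveloping layer markers was 451.48, 66.47 and 179.98 FPKM in the same order, and that of 5 yolk syncytial layer markers was 517.73, 60.82 and 151.12 FPKM. The summed level of 5 germ plasm markers was 279.4, 589.26 and 595.4 FPKM, a difference carried by buc (70.66, 349.68 and 364.84 FPKM) and tdrd7a (33.36, 71.71 and 61.38 FPKM). The defining germ plasm gene ddx4 was at 141.94, 124.34 and 140.32 FPKM, and nanos3 and dnd1 were above control at 4.3 hpf and below it at 5 hpf. These sums differ between control and WGA, and their part in the values below was not tested. In RNA from whole embryos, fewer cells of a type and less RNA per cell cannot be told apart.

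As background, early zebrafish cleavages alternate DNA synthesis and mitosis with little or no gap phase, and the egg supplies the replication proteins and their mRNAs. The cycle then lengthens at the midblastula transition, near the time when the embryo's genome is switched on. In the frog Xenopus, a handful of initiation factors, among them TopBP1, RecQ4 and Treslin, become limiting at that point, and the checkpoint kinase Chk1 is active there. Origins are first marked by ORC, then loaded with MCM helicase by Cdc6 and Cdt1, while geminin blocks Cdt1. The kinase Cdc7 with its subunit Dbf4, together with the cyclin-dependent kinases, next converts the loaded helicase into the active form that holds Cdc45 and GINS.

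The members were abundant, and their pooled level hardly differed between libraries. Their median level was 28.27 FPKM in control and, under WGA, 27.47 at 4.3 hpf and 27.63 at 5 hpf, against 9.17, 10.22 and 9.38 FPKM for the 14349 genes that reached 1 FPKM in any library. Together they made up 0.905%, 0.91% and 0.895% of the summed FPKM of all genes. FPKM is a value per length, so levels set side by side between genes are adjusted for transcript length. The RNA was poly(A) RNA, and whether genes differed in capture was not tested. In the control they ran from 2.55 FPKM for atr to 504.33 FPKM for cdc6.

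**Figure D1:**
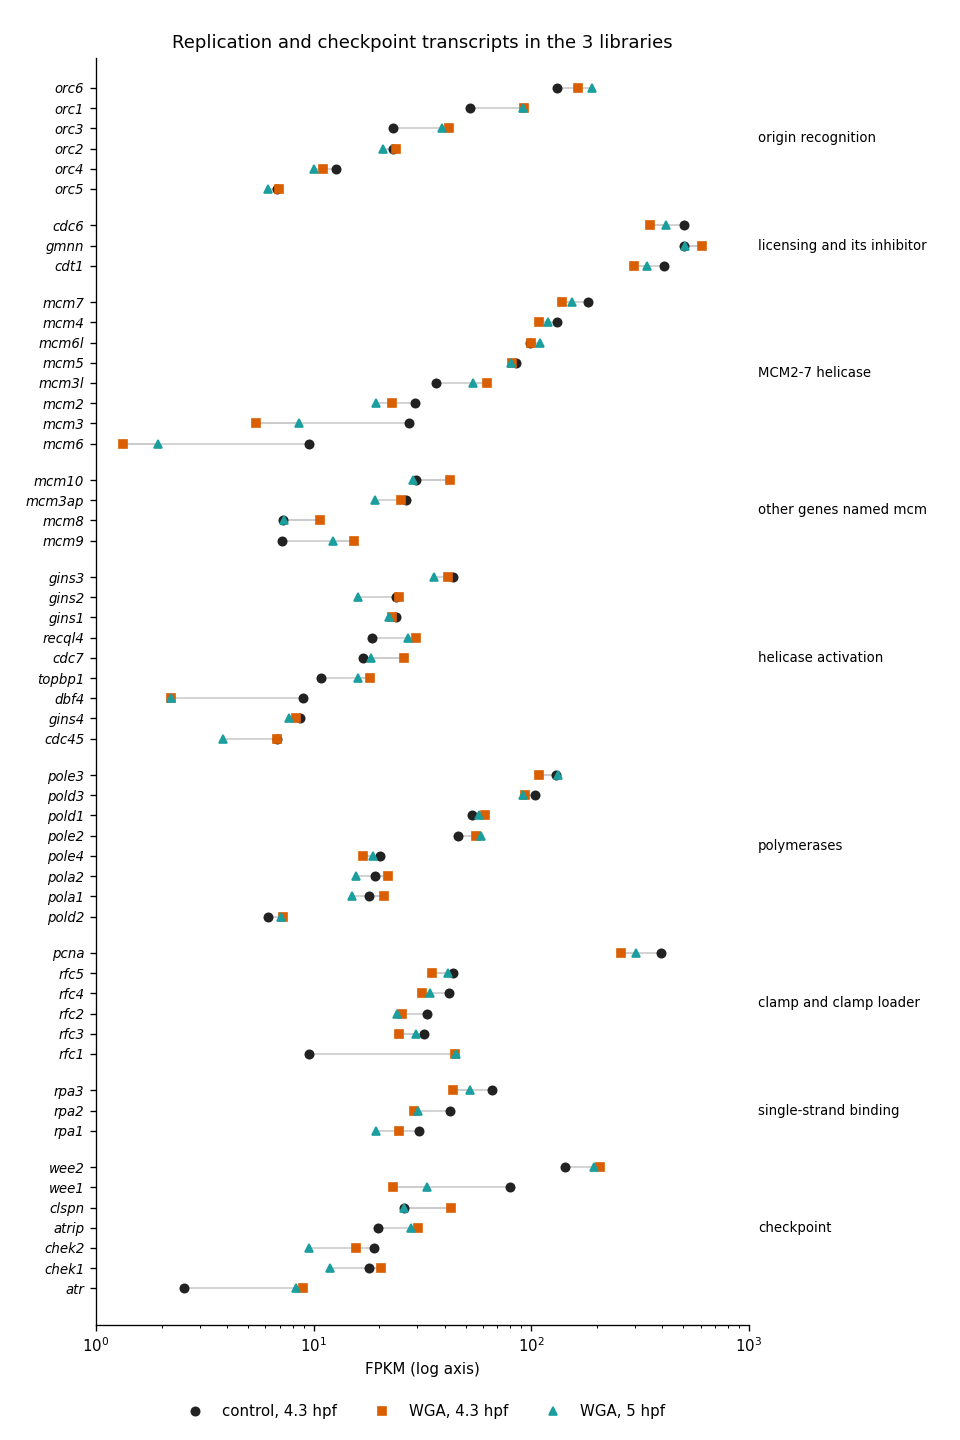
Level of each of the 54 members in each library (FPKM, log axis), grouped by role; circles are control at 4.3 hpf, squares WGA at 4.3 hpf and triangles WGA at 5 hpf, with 1 library per group and no error bars. Most triplets lie close together, while mcm3, mcm6, dbf4 and wee1 have the control to the right and rfc1 and atr have it to the left.

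With 1 library per group no test of a condition was possible, so each difference is the log2 ratio of (FPKM + 1) between 2 libraries, and folds are given on that scale. At 4.3 hpf, 4 of 54 members (7.41%) were lower in WGA embryos by 2-fold or more, namely mcm3, mcm6, dbf4 and wee1. The share over all 14263 genes measured in that pair was 8.97%. Another 3 members (5.56%), rfc1, atr and mcm9, were higher by 2-fold or more, beside 7.21% of all genes. The share of members past 2-fold was thus near that of genes in general. The median log2 ratio of the members was -0.032 (SD over members 0.76), and that of all genes was 0.029.

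At 5 hpf against the same control library, the 4 lower genes were again mcm3, mcm6, dbf4 and wee1, where 7.92% of 14158 genes were as low. Only rfc1 and atr were higher by 2-fold or more, 3.7% of members beside 5.3% of all genes. The median log2 ratio of the members was -0.13 (SD over members 0.67), and that of all genes was -0.021. Both comparisons rest on 1 control library, so they are not independent. The comparison at 5 hpf also spans the difference in age, since the control was collected at 4.3 hpf. At a lower threshold of 1.5-fold, 6 members were lower and 10 higher at 4.3 hpf, where 15.3% and 18.1% of all genes were, and 7 were lower and 5 higher at 5 hpf, where 15% and 13.3% were.

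**Figure D2:**
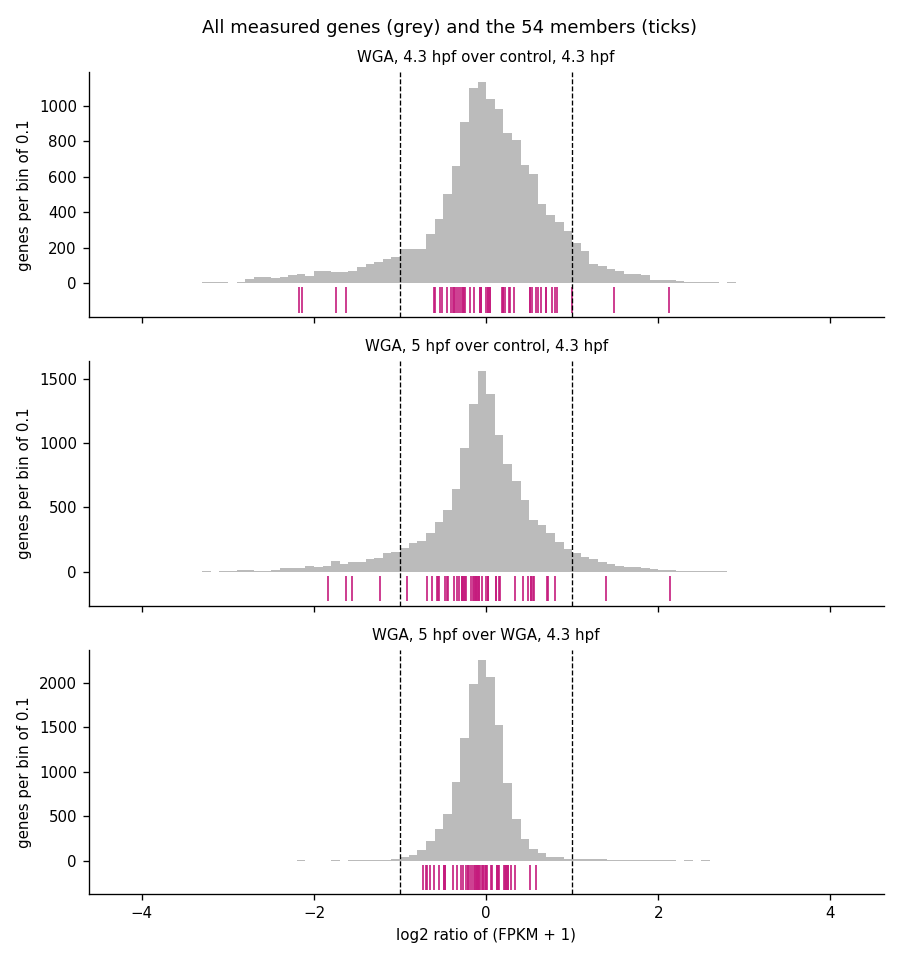
Histograms of the log2 ratio of (FPKM + 1) for all genes measured in each pair of libraries (grey, bins of 0.1), with 1 tick below the axis for each of the 54 members and dashed lines at 2-fold. In both comparisons with control most members lie between the lines and 6 or 7 lie outside, while between the WGA libraries 0 lie outside.

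The direction of small differences depends on how libraries are scaled. TPM, which shifted the median of all genes at 4.3 hpf to 0.13, turned 6 members from lower to higher, all within 1.05-fold of control. Scaling to the ribosomal protein genes, which were lower in WGA embryos, shifted the median of all genes to 0.68 at 4.3 hpf and 0.32 at 5 hpf. At 4.3 hpf it turned 24 members from lower to higher and left 4 below control, namely mcm3, mcm6, dbf4 and wee1. The genes rfc1, atr and mcm9 stayed above control, but no scaling tried could have put them below it. TPM and ribosomal protein scaling raised their ratios. Median-of-ratios scaling lowered them only slightly, for rfc1 from 2.12 to 2.06 at 4.3 hpf. Shares and ratios between members of the same library, used below, do not depend on scaling.

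**Figure D3:**
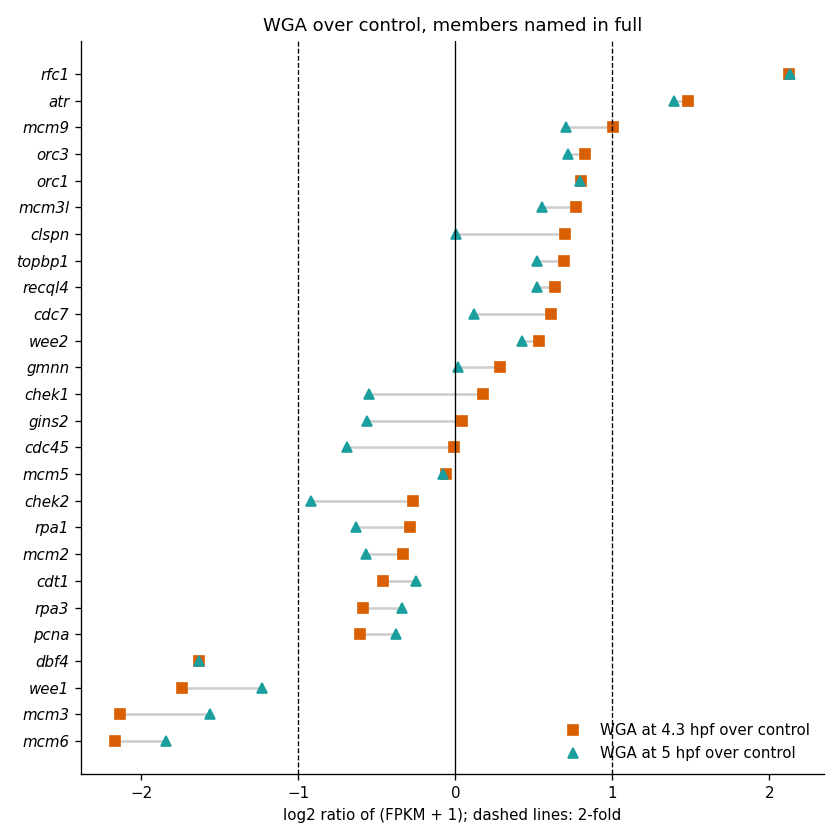
Log2 ratio of (FPKM + 1) over control for the 26 members named in full (1.5-fold or more in any comparison, plus a fixed set), at 4.3 hpf (squares) and 5 hpf (triangles); dashed lines mark 2-fold. The genes mcm6, mcm3, wee1 and dbf4 lie left of -1 at both times and rfc1 and atr lie right of 1 at both times; both sets of points use the same control library.

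The origin recognition complex binds DNA as a ring of subunits. Its ATPase gene orc1 (NCBI Gene 554509) had 52.52 FPKM in control and, under WGA, 92.24 at 4.3 hpf and 91.83 at 5 hpf, 1.74-fold and 1.73-fold higher. The subunit gene orc3 (334315) was at 23.28, 42.04 and 38.95 FPKM in the same order, 1.77-fold and 1.65-fold higher. Both WGA libraries thus lay above control for these 2 subunits, but no scaling tried could have put them below it. Only median-of-ratios scaling lowered the log2 ratios, for orc1 from 0.80 to 0.74 at 4.3 hpf. The subunit gene orc6 was at 130.72, 163.41 and 190.83 FPKM and was the most abundant of the 6 in every library. In contrast orc2, orc4 and orc5 lay within 1.25-fold of control at both times. None of the 6 reached 2-fold.

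The licensing factors were among the most abundant transcripts of the embryo. The loader gene cdc6 (402825) was at 504.33, 352.53 and 416.77 FPKM, and in control only 0.225% of all genes stood as high. The gene of its partner Cdt1, cdt1 (566787), was at 406.91, 295.47 and 342.09 FPKM, 1.38-fold and 1.19-fold lower. Both were highest in control and lowest in WGA at 4.3 hpf, an order that turned under ribosomal protein scaling. The geminin gene gmnn (368320), whose product inhibits Cdt1, was at 503.18, 612.14 and 509.45 FPKM. The ratio of gmnn to cdt1 within a library was 1.24 in control, and under WGA it was 2.07 at 4.3 hpf and 1.49 at 5 hpf, so the inhibitor's transcript exceeded that of Cdt1 in all 3 libraries and by the most in WGA at 4.3 hpf.

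In the MCM helicase, made of 6 related subunits named MCM2 to MCM7, the difference fell on individual genes. The gene mcm6 (566409) had 9.49 FPKM in control and, under WGA, 1.33 at 4.3 hpf and 1.93 at 5 hpf, 4.50-fold and 3.58-fold lower. The gene mcm3 (192323) was at 27.35, 5.44 and 8.6 FPKM, 4.40-fold and 2.95-fold lower. At 4.3 hpf, 1.82% of all genes had a lower ratio than mcm6 and 1.92% had a lower ratio than mcm3. The like-named gene mcm3l (100147915) went the other way, at 36.57, 62.85 and 54.16 FPKM, 1.70-fold and 1.47-fold higher. For mcm6l (564982) the values were 98.45, 100.04 and 109.55 FPKM, 1.02-fold and 1.11-fold higher.

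The remaining subunits showed no comparable difference. The gene mcm2 (192338) was at 29.19, 22.96 and 19.32 FPKM, 1.26-fold and 1.49-fold lower. The gene mcm5 (286747) was at 85.27, 81.59 and 80.57 FPKM, within 1.06-fold of control. The genes mcm4 and mcm7, at 131.23 and 182.15 FPKM in control, were 1.2-fold and 1.31-fold lower at 4.3 hpf and closer to control at 5 hpf. Under ribosomal protein scaling mcm2, mcm4, mcm5 and mcm7 all lay above control at 4.3 hpf, at log2 ratios of 0.34 to 0.66. At 5 hpf mcm2 stayed below it, at -0.21. Although the subunits assemble in equal number, the levels of their transcripts in control differed widely, mcm2 and mcm7 marking the ends once each mcm3 and mcm6 gene is summed with its like-named gene.

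When the like-named genes were added up, the libraries came out nearly level on the deposited scale. The sum of mcm3 and mcm3l was 63.92, 68.29 and 62.76 FPKM in control, WGA at 4.3 hpf and WGA at 5 hpf. Within it, the share of mcm3 was 42.8% in control and, under WGA, 7.97% at 4.3 hpf and 13.7% at 5 hpf. The summed level thus moved little while its makeup shifted toward mcm3l. For mcm6 and mcm6l the sum was 107.94, 101.37 and 111.48 FPKM, and the share of mcm6 was 8.79%, 1.31% and 1.73%. With so small a share for mcm6, that total mostly follows mcm6l, whatever mcm6 does. The values of mcm3 and mcm6 had been seen before, and the sums of some other like-named pairs, given below, moved more. As background, Xenopus has separate maternal and zygotic forms of MCM3 and of MCM6. Whether the zebrafish pairs share reads, which the authors' counting may have split between the copies, was not tested, so the division within a pair is less certain than its sum.

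**Figure D4:**
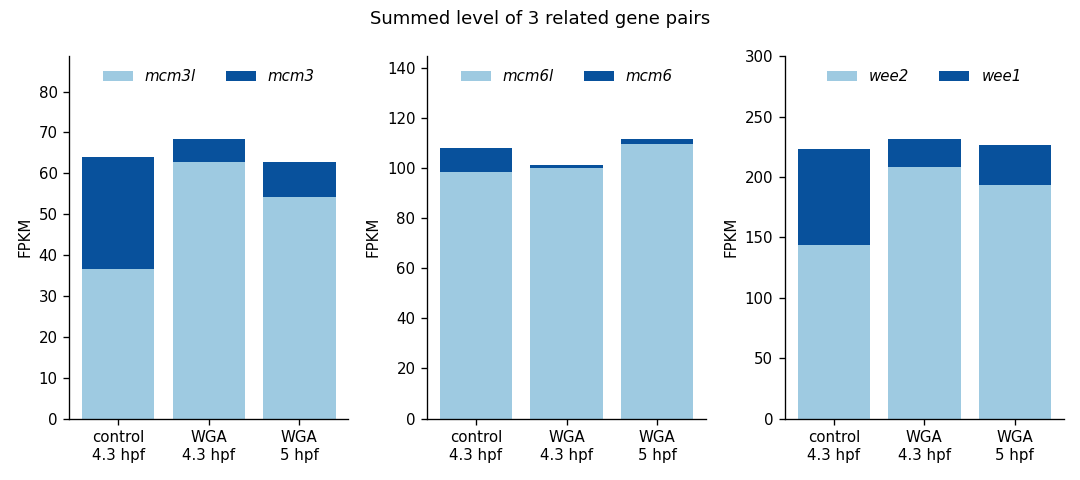
Stacked bars of the level (FPKM, axis from 0) of mcm3 with mcm3l, mcm6 with mcm6l and wee1 with wee2 in each library, 1 library per bar. The dark part (mcm3, mcm6, wee1) is largest in control, and the total height differs little: 63.92, 68.29 and 62.76 FPKM for the first pair and 223.27, 231.2 and 226.64 FPKM for the last.

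Of the other genes whose symbols start with mcm, mcm9 (555610), which encodes a helicase of homologous recombination, was at 7.14, 15.3 and 12.28 FPKM. It was 2-fold higher at 4.3 hpf and 1.63-fold higher at 5 hpf, and it stood under 2-fold with median-of-ratios scaling (log2 ratio 0.95) and with a pseudocount of 5 (0.74). Its partner gene mcm8 was at 7.21, 10.67 and 7.32 FPKM. The initiation factor gene mcm10 was at 29.65, 42.53 and 28.73 FPKM, so that for both genes the 5 hpf library lay at control level and the 4.3 hpf library above it. The gene mcm3ap, an mRNA export factor gene that the name pattern also caught, was at 26.63, 25.34 and 19.17 FPKM.

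Among the helicase activators, dbf4 (799015), the gene of the activating subunit of Cdc7, had 8.95 FPKM in control but 2.21 FPKM in each WGA library, 3.10-fold lower. With a pseudocount of 5 its log2 ratio was -0.95 at both times, short of 2-fold. The kinase gene cdc7 (492768) was at 16.81, 26.14 and 18.35 FPKM, 1.52-fold and 1.09-fold higher. The ratio of cdc7 to dbf4 within a library was therefore 1.88 in control and, under WGA, 11.8 at 4.3 hpf and 8.30 at 5 hpf. A second subunit gene, dbf4b (566753), belongs to the wider pathway list and stood at 8.21, 17.5 and 16.21 FPKM. Summed, dbf4 and dbf4b came to 17.16, 19.71 and 18.42 FPKM, with dbf4 at 52.2%, 11.2% and 12% of the sum. This pair was put together after its values had been seen.

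TopBP1, RecQ4 and Treslin are among the initiation factors known as limiting in Xenopus. The gene topbp1 (407679) was at 10.82, 18.08 and 15.97 FPKM, 1.61-fold and 1.44-fold higher. The helicase gene recql4 (567383) was at 18.65, 29.57 and 27.14 FPKM, 1.56-fold and 1.43-fold higher. The gene ticrr, which encodes Treslin and was named after its values were seen, was at 10.28, 19.23 and 11.99 FPKM, at log2 ratios of 0.84 and 0.20. None of these 3 genes reached 2-fold, and all 3 were higher by 1.5-fold or more at 4.3 hpf, as 18.1% of all genes were. Over the settings tried, the log2 ratios at 4.3 hpf ran from 0.54 to 1.39 for topbp1 and from 0.55 to 1.35 for recql4. The lowest fell short of 1.5-fold and the highest, under ribosomal protein scaling, passed 2-fold. The gene dbf4b, related to the limiting Xenopus factor Drf1, was just past 2-fold at 4.3 hpf (log2 ratio 1.01).

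Cdc45 and GINS are parts of the active helicase. The gene cdc45 (406695) was at 6.82, 6.78 and 3.85 FPKM, level with control at 4.3 hpf and 1.61-fold lower at 5 hpf. The GINS subunit gene gins2 (554146) was at 24.03, 24.8 and 15.97 FPKM, 1.47-fold lower at 5 hpf. The other GINS genes, gins1, gins3 and gins4, differed from control by at most 1.21-fold at either time. Under ribosomal protein scaling the log2 ratios at 4.3 hpf and 5 hpf were 0.65 and -0.38 for cdc45 and 0.75 and -0.20 for gins2.

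All 8 polymerase genes lay within 1.26-fold of control at both times, with log2 ratios of -0.26 to 0.26 at 4.3 hpf and -0.28 to 0.33 at 5 hpf. The polymerase alpha genes pola1 and pola2, which start each new strand together with primase, moved in parallel. The gene pola1 was at 18.01, 21.14 and 14.94 FPKM and pola2 was at 19.15, 22.08 and 15.62 FPKM. Among delta and epsilon subunits, levels in control ran from 6.19 FPKM for pold2 to 130.48 FPKM for pole3. The catalytic subunit gene pole lies outside the name pattern; named after its values were seen, it was at 4.85, 5.65 and 4.55 FPKM.

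The clamp loader held the member furthest above control. Its large subunit gene rfc1 (100037336) had 9.54 FPKM in control and, under WGA, 44.88 at 4.3 hpf and 45.18 at 5 hpf, 4.35-fold and 4.38-fold higher. Only 0.48% of all genes had a higher ratio at 4.3 hpf and 0.41% at 5 hpf. The small subunit genes rfc2, rfc3, rfc4 and rfc5 all lay below control, at log2 ratios of -0.41 to -0.31 at 4.3 hpf and -0.44 to -0.08 at 5 hpf, though all 4 turned positive at 4.3 hpf under ribosomal protein scaling. Within a library, rfc1 stood at 0.254 times the median of the small subunits in control and, under WGA, 1.58 times at 4.3 hpf and 1.41 times at 5 hpf. The large subunit thus went from the scarcest loader transcript in control to the most abundant in both WGA libraries. The clamp gene pcna (30678), which encodes the ring that tethers polymerases to DNA, was at 394.64, 258.25 and 303.99 FPKM, 1.53-fold and 1.3-fold lower. Under ribosomal protein scaling the log2 ratios of pcna were 0.12 at 4.3 hpf and 0.0006 at 5 hpf, so its lower level depends on scaling.

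All 3 genes of the single-strand binding complex RPA lay below control at both times. The large subunit gene rpa1 (327491) was at 30.43, 24.67 and 19.29 FPKM, 1.22-fold and 1.55-fold lower. The small subunit gene rpa3 (393196) was at 66.26, 43.72 and 52.11 FPKM, 1.5-fold and 1.27-fold lower. The middle subunit gene rpa2 was at 42.35, 28.79 and 30.08 FPKM. None reached 2-fold, and at 4.3 hpf all 3 turned positive under ribosomal protein scaling.

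In the checkpoint, the sensor kinase gene atr (567770) was at 2.55, 8.92 and 8.31 FPKM, 2.79-fold and 2.62-fold higher in WGA embryos. The gene of its partner atrip (558534), which brings ATR to RPA-coated DNA, was at 19.78, 30.14 and 28.11 FPKM, 1.5-fold and 1.40-fold higher. Both WGA libraries lay above control for both genes, although atr was the scarcest member in control. With a pseudocount of 5, its log2 ratios were 0.88 and 0.82.

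The genes chek1, clspn and chek2, which act downstream, were each lower at 5 hpf than at 4.3 hpf under WGA. The gene chek1 (393162), which encodes Chk1, was at 17.91, 20.4 and 11.91 FPKM. The gene of its adaptor claspin, clspn (564151), was at 25.97, 42.72 and 26.01 FPKM. For both genes the highest library was WGA at 4.3 hpf. The gene chek2 (336998), whose product acts mainly after double-strand breaks, was at 18.98, 15.6 and 9.56 FPKM, 1.2-fold and 1.89-fold lower than control. Under ribosomal protein scaling the log2 ratios of chek2 were 0.43 at 4.3 hpf and -0.57 at 5 hpf.

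The Wee kinases, which inhibit Cdk1, are encoded by a like-named pair as well. The gene wee1 (327060) was at 79.52, 23.1 and 33.23 FPKM, 3.34-fold and 2.35-fold lower in WGA embryos. The gene wee2 (327471), known in the mouse as the form of the oocyte, was at 143.75, 208.1 and 193.41 FPKM, 1.44-fold and 1.34-fold higher. Their sum was 223.27, 231.2 and 226.64 FPKM, in which wee1 took 35.6%, 9.99% and 14.7%. As with mcm3, the total was nearly level on the deposited scale, while the share of wee1 was smaller in both WGA libraries. The share does not depend on scaling, but the total does. Under ribosomal protein scaling the log2 ratios at 4.3 hpf were -1.03 for wee1 and 1.26 for wee2. At 5 hpf the ratio of wee1 came to less than 2-fold under ribosomal protein scaling (log2 ratio -0.87).

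Between the WGA libraries, which do not involve the control, 0 of 54 members differed by 2-fold, where 0.356% of 13478 genes were lower at 5 hpf and 0.772% higher. The SD of the log2 ratio over members was 0.31, the same as over all genes. At 1.5-fold or more, 5 members were lower at 5 hpf (9.26%, beside 4% of all genes) and 0 were higher (beside 2.26%). These 5 were chek1, clspn, cdc45, chek2 and gins2, 1.66-fold, 1.62-fold, 1.60-fold, 1.57-fold and 1.52-fold lower in that order. Ribosomal protein scaling, which shifted the median of all genes in this pair to -0.37, put 4 members, chek1, clspn, cdc45 and chek2, lower by 2-fold or more, beside 2.8% of all genes. In the opposite direction, mcm3 and wee1 were 1.49-fold and 1.42-fold higher at 5 hpf, the 2 highest ratios of the 54, though below control at both times.

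**Figure D5:**
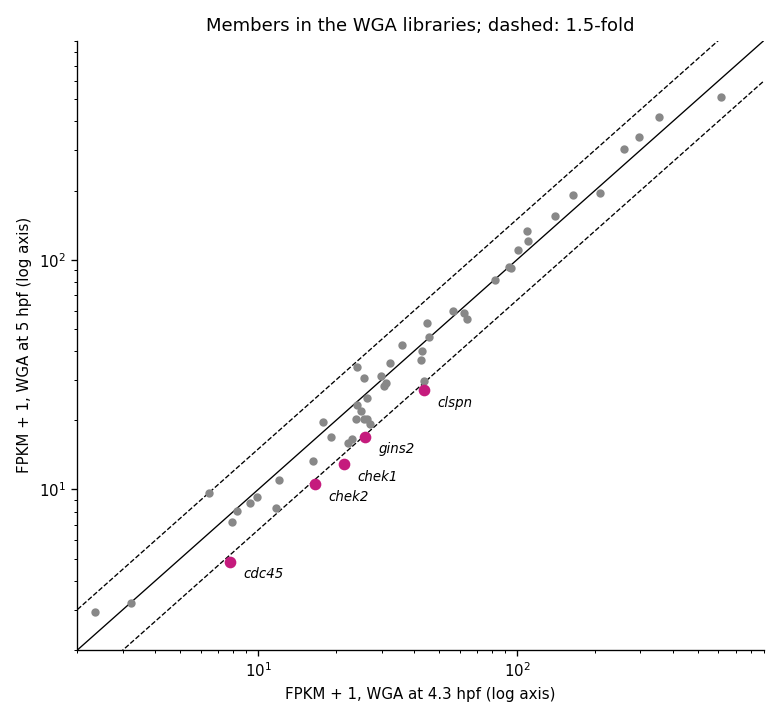
Level of the 54 members (FPKM + 1, both axes log) in WGA at 5 hpf against WGA at 4.3 hpf, with a solid line at equality and dashed lines at 1.5-fold. The 5 named points below the lower line are clspn, gins2, chek1, chek2 and cdc45; 0 members lie above the upper line.

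The wider replication pathway, a list of 112 entries chosen by function that gave 103 measured genes besides the members, also held both lower and higher genes. At 4.3 hpf, 2-fold or more separated 5 of the 103 (4.85%) from control as lower and 10 (9.71%) as higher, beside the 8.97% and 7.21% of all genes, around a median log2 ratio of 0.083. Of the higher genes, dbf4b, tyms, mtbp and asf1bb were only just past 2-fold, at log2 ratios of 1.01 to 1.05. The counts for this list were not repeated under other scalings or pseudocounts, so the share of higher genes may depend on them. At 5 hpf the lower genes numbered 5 (4.85%) and the higher genes 4 (3.88%), beside the 7.92% and 5.3% of all genes, around a median of -0.045. The S-phase cyclin gene ccne2 was at 24.13, 4.43 and 7.89 FPKM, and fbxo5, which encodes the anaphase-promoting complex inhibitor Emi1, was at 100.91, 34.5 and 28.36 FPKM. Both were lower at both times. So were e2f7, a repressor gene of the E2F family, at 12.45, 2.82 and 4.64 FPKM, and rbl1, a retinoblastoma-family gene, at 10.04, 3.01 and 3.69 FPKM. The topoisomerase gene top2a, at 19.54, 8.68 and 9.95 FPKM, was lower by 2-fold or more at 4.3 hpf and 1.88-fold lower at 5 hpf. The mitotic kinase gene cdk1, at 18.55, 9.21 and 7.07 FPKM, was 1.91-fold lower at 4.3 hpf and past 2-fold at 5 hpf.

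Higher at both times by 2-fold or more were 4 genes of the list. The nuclease gene dna2, which trims Okazaki fragments, was at 13.4, 36.44 and 29.12 FPKM. The maintenance methyltransferase gene dnmt1 was at 72.58, 201.73 and 162.01 FPKM. The damage kinase gene atm was at 0.79, 3.61 and 2.96 FPKM and the translesion polymerase gene polh at 7.33, 22.02 and 21.6 FPKM. The control value of atm lies below 1 FPKM, and dna2 was 2.09-fold higher at 5 hpf. With a pseudocount of 5, no gene below 5 FPKM can be 2-fold higher, so atm would not pass at either time. Whether the other genes stay past 2-fold at that setting was not tested.

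The other 6 genes of the list that were higher by 2-fold or more at 4.3 hpf lay within 2-fold of control at 5 hpf. They were the firing factor gene mtbp, dbf4b, the clamp unloader gene atad5b, the thymidylate synthase gene tyms, the histone chaperone gene asf1bb and slbp2, which encodes a histone mRNA binding protein. Their log2 ratios at 4.3 hpf were 1.01 to 1.61. At 5 hpf atad5b, tyms and dbf4b were only just short of 2-fold, at 1.97-fold, 1.95-fold and 1.87-fold higher. The genes mtbp, slbp2 and asf1bb were 1.36-fold, 1.27-fold and 1.25-fold higher. Between the WGA libraries, rad17, the gene of the loader of the checkpoint clamp, was the 1 gene of the 103 past 2-fold (0.971%), at 4.04, 6.61 and 2.7 FPKM. It was 2.06-fold lower at 5 hpf, where 0.356% of all genes were lower by 2-fold or more. The genes chek1, chek2 and clspn were lower there by 1.5-fold or more, as 4% of all genes were. The other checkpoint members were not, with atr and atrip within 1.07-fold and wee1 1.42-fold higher. The 13 measured checkpoint genes of the wider list, rad17 among them, had a median log2 ratio of -0.32 between the WGA libraries. Their highest was 0.05, and the median of all genes was -0.049. Genes outside the checkpoint were as low, among them slbp2 (1.82-fold), asf1bb (1.66-fold) and cdc45 (1.60-fold).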

How the data were processed

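The authors deposited 1 table of FPKM values, rounded to 2 decimals, with 1 column per library. Build GRCz11, RSEM 1.2.8, Bowtie2 2.2.5 and Trimmomatic 0.36 are listed, per the submitters' processing notes, without roles or settings; the annotation release and any scaling between libraries are not given in the sources used here. FPKM holds no read numbers, so the depth is unknown and counting error is not given. Columns were matched to libraries by name. The members and lists were chosen with earlier results of these data known. All 54 gene numbers were found in the NCBI table of assembly GRCz12tu, used for names only, and 11 pathway entries matched through it. The ratio was log2 of (FPKM + 1), over genes at 1 FPKM or more in either library, computed with Python 3.11.15, numpy 2.4.6 and pandas 2.3.3, and the counting was tested on simulated data. Members at 1.5-fold or more in any comparison and a fixed set were named in full, and pathway genes at 2-fold or more. Alternatives were pseudocounts of 0.1 and 5, filters at 5 FPKM and none, a 1.5-fold threshold, TPM, ribosomal protein scaling (82 genes) and median-of-ratios scaling (8290 genes). A planned promoter motif search was not run. With 1 library per group, no p-value was computed.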

Additional observations from a re-analysis of the deposited data

How the results depend on the processing

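No paired analysis was possible because each group has 1 library. For the same reason no library could be left out. With a pseudocount of 5, 1 member in place of 3 was higher by 2-fold or more at 4.3 hpf and 1 in place of 2 at 5 hpf. The share of all genes that were higher fell as well, from 7.21% to 3.33% at 4.3 hpf and from 5.3% to 2.61% at 5 hpf. TPM turned the median log2 ratio of members at 4.3 hpf to 0.065. Ribosomal protein scaling turned that median to 0.66 and the one at 5 hpf to 0.23, moved the one between the WGA libraries to -0.42, and gave 16 members higher at 4.3 hpf, 5 higher at 5 hpf and 4 lower between the WGA libraries, beside 29.2%, 11.3% and 2.8% of all genes. The 1.5-fold rule gave 10 members higher at 4.3 hpf, 7 lower and 5 higher at 5 hpf, and 5 lower between the WGA libraries. The shares of all genes were 18.1%, 15%, 13.3% and 4% in that order. Of the 13 ratios past 2-fold, 0 changed sign in 91 values under alternatives. Another pseudocount or filter cannot turn the sign of a member's ratio. TPM, ribosomal protein scaling and median-of-ratios scaling can turn the sign of a small ratio. Their shifts were smaller than each of the 13 ratios, the largest moving the median of all genes to 0.68. The lack of sign changes was therefore fixed in advance and is no support. Of the 91 values, 7 no longer passed 2-fold. With a pseudocount of 5 these were mcm9, atr and dbf4 at 4.3 hpf and atr and dbf4 at 5 hpf. The others were wee1 at 5 hpf under ribosomal protein scaling and mcm9 at 4.3 hpf under median-of-ratios scaling. Depth being unknown, the counting error of the lowest values, such as mcm6 at 1.33 FPKM and dbf4 at 2.21 FPKM, is unknown too.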

Other observations

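Pairs of like-named genes were looked at across the members and the wider pathway list. The values of mcm3, mcm6, wee1, dbf4 and dbf4b had been seen before. Both genes were measured in 18 of 23 pairs. At 4.3 hpf, in 2 of the 18, mcm3 with mcm3l and dbf4 with dbf4b, one gene was lower and the other higher by 1.5-fold or more. Both pairs were among those already seen, so their count is no support. Over all genes, 15.3% were lower and 18.1% higher by that much. The signs of the ratios were opposite in 10 of the 18 pairs. Of the 54 members, 28 had ratios below 0 and 26 above, so opposite signs can be frequent in any pairing. Some of the 10 pairs rest on ratios near 0, such as 0.023 for mcm6l and 0.064 for rrm2. The count was not repeated under other scalings, which can turn small ratios. The genes ccne1 and ccne2 were both below control, at log2 ratios of -0.18 and -2.21, and atad5a and atad5b were both above it, at 0.41 and 1.61. The histone mRNA binding genes slbp and slbp2 lay at -0.45 and 1.21, and their sum was 156.66, 179.53 and 123.64 FPKM in control, WGA at 4.3 hpf and WGA at 5 hpf. The S-phase cyclin genes ccna1 and ccna2 lay at 0.58 and -0.27, with a sum of 1543.39, 1649.61 and 1902.98 FPKM. The retinoblastoma-family pair rbl1 and rbl2 had a sum of 11.79, 4.35 and 5.76 FPKM, so that it did not stay level. Other sums moved as well. That of e2f7 and e2f8 was 66.26, 37.5 and 36.78 FPKM, and that of kmt5aa and kmt5ab was 461.34, 357.76 and 408.08 FPKM. For atad5a and atad5b the sum was 51.9, 74 and 67.43 FPKM. Under ribosomal protein scaling the negative ratios of ccne1, slbp and ccna2 turned positive (0.55, 0.28 and 0.46), while those of ccne2 and rbl1 stayed negative (-1.59 and -0.88).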
